A study of Mus musculus with 6 samples.

Results

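The genes of glycolysis and of the cellular response to low oxygen were followed in control DC2.4 cells and in DC2.4 cells labelled PD-L1 knockout. They are 39 of the 31205 gene symbols in the deposited count table. A list of symbols chose them: 25 genes of glucose transport, glycolysis and pyruvate use, and 14 regulators and targets of the hypoxia-inducible factors (HIF). DC2.4 is an immortalised mouse dendritic cell line. PD-L1 (gene Cd274) is a surface protein that restrains T cells through their receptor PD-1. Total RNA was sequenced from 3 libraries of control DC2.4 cells and 3 libraries of a PD-L1-knockout derivative of the same line. The labels name no treatment, oxygen level, culture medium, time, number of clones or method of knockout, nor whether replicate libraries are separate cultures. The p-values therefore describe the spread among the libraries sequenced, part or all of which may be technical.

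Library totals ran from 10918498 to 23250065 counts in the control and from 13501776 to 21133688 in the knockout. Cd274 itself had 52, 99 and 171 counts in control libraries 1 to 3 and 102, 81 and 163 in knockout libraries 1 to 3, and no fall was seen in the knockout group (log2 fold change 0.28, SE 0.247, adjusted p = 0.415). The labels do not say which bases were changed, so a gene count cannot check the genotype, and the knockout libraries are called so from their labels alone. The 16 leukocyte and dendritic markers summed to between 1136 and 1211 CPM (counts scaled to a common library total) in the control and between 1053 and 1091 in the knockout, while the dendritic markers Flt3, Batf3 and H2-Ab1 stayed under 1 CPM in every library. The 10 stromal markers summed to 223 CPM in control library 2 and to at most 0.626 CPM in each other library, and 3 of them were at 0 in every library. The 17 lymphocyte, epithelial, endothelial and erythroid markers gave sums of at most 0.895 CPM per list and library. Results that change without control library 2 are given below with their values.

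Glycolysis turns glucose into pyruvate in the cytosol. Transporters bring glucose in, hexokinases and phosphofructokinases spend ATP to prime it, aldolase splits the sugar, and the enzymes after it recover ATP and NADH. Lactate dehydrogenase turns pyruvate into lactate and restores NAD+, and monocarboxylate transporters carry lactate out. Pyruvate dehydrogenase instead uses pyruvate inside mitochondria. Dendritic cells are known to raise glycolysis when they are activated through Toll-like receptors. HIF is a pair of proteins, an oxygen-regulated alpha subunit such as HIF-1 alpha (Hif1a) and the constant partner ARNT. With oxygen present, the prolyl hydroxylases encoded by Egln1, Egln2 and Egln3 modify the alpha subunit, the VHL ubiquitin ligase then marks it for degradation, and its level is therefore set mostly on the protein, which RNA counts do not measure. HIF binds a short DNA core and raises many glycolytic genes, Vegfa, Egln3 and other targets.

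That core, ACGTG or GCGTG, was searched on both strands in the 250 bases before each RefSeq start site (assembly GRCm38.p6), with overlapping matches counted as 1 stretch. Of 36 members with a start in the table, 33 held it (91.7%), beside 62.4% of 9033 tested genes with a start. Counted by start, it was in 79.2% of 53 member starts, 56.3% of the starts of tested genes and 38.6% of all 32851 starts. The member list was assembled around this pathway, so its higher share describes the list. A match is a stretch of letters and not evidence of binding, and nothing was measured here on HIF binding. The windows below, of 30 bases, 5′ to 3′ on the gene's strand, are shown for the genes that the results turn on. Each is the stretch with the most letters of the core within those 250 bases, with the core or its complement in capitals.
Aldoa, chr7:126799363-126799392, minus strand: tgtggctcgagtCACGTcctagcggggcgg
Gapdh, chr6:125165805-125165834, minus strand: gagcccaCACGCttggtGCGTGcacatttc
Pgk1, chrX:106186947-106186976, plus strand: aggACGTGacaaatggaagtagCACGTctc
Pgam1, chr19:41911771-41911800, plus strand: actgccgggtagCACGCgggtaccgctacg
Eno1, chr4:150237111-150237140, plus strand: CACGCtcttctattggagtgatggCACGCt
Pkm, chr9:59657140-59657169, plus strand: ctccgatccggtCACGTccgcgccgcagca
Ldha, chr7:46845751-46845780, plus strand: gcctaCACGTGggttcccgCACGTccgctg
Egln3, chr12:54204086-54204115, minus strand: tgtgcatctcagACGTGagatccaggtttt
Vegfa, chr17:46025361-46025390, minus strand: ccctggagtGCGTGccCACGTcagagagca
P4ha2, chr11:54100838-54100867, plus strand: catcgcatACGTGcagcGCGTGgcggctcg
Tpi1 had 1 start in the table and no match in its 250 bases. Among the genes of the lower pathway shown, Gapdh and Ldha have their window within 61 bases of the start and Aldoa has its own between 185 and 214 bases away. The Vegfa window lies before a downstream start inside the gene. The other Vegfa start, at the 5′ end of the gene, had no match in its 250 bases. The windows of Vegfa, Aldoa, Gapdh, Eno1, Pkm, Ldha and P4ha2 lie inside the annotated gene, and those of Pgk1, Pgam1 and Egln3 lie before it.

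In the knockout libraries, 4 members rose and 1 fell among the 37 that could be tested. The glycolytic enzymes Gapdh and Tpi1 rose to about 1.5 times their control level, the oxygen sensor Egln3 and the growth factor Vegfa rose, and P4ha2, a subunit of collagen prolyl hydroxylase, fell to under 0.5 of its control level. Hif1a stood at the same mean in both groups. Differences were tested with edgeR (quasi-likelihood F test, Benjamini-Hochberg adjustment) over all 11453 genes past its filter on low counts, and a gene was called at an adjusted p under 0.05. Over all tested genes 25.3% were called, 11.8% higher and 13.5% lower, so the members' shares called, 8.7% of 23 for glycolysis and 21.4% of 14 for the HIF genes, were under that background. Slc2a3 (at most 11 counts in a library) and Ldhb (at most 3) did not pass the filter. Levels did not overlap between the groups for 12 of the 37 members, 9 with the knockout above and 3 with it below, against 43% of all tested genes.

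**Figure D1:**
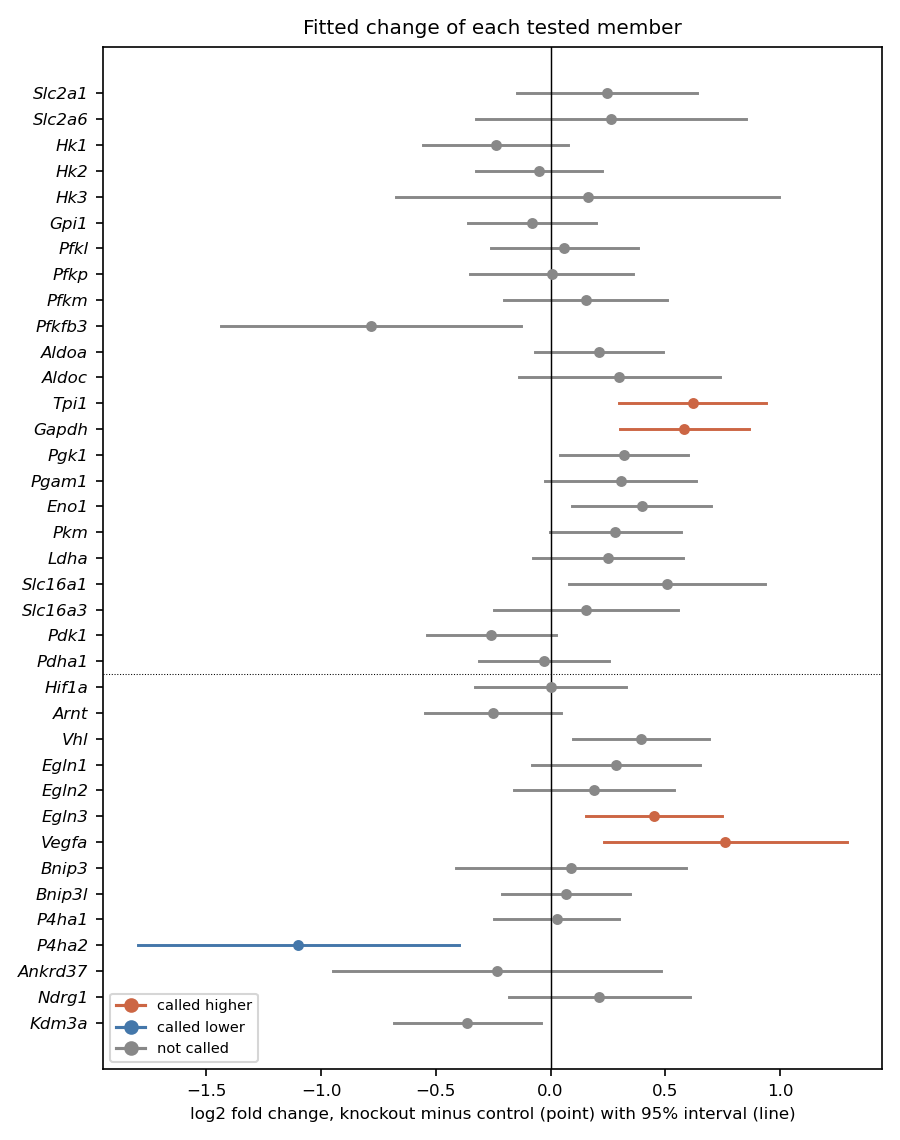
Fitted log2 fold change (knockout minus control, x axis) of each of the 37 tested members as a point, with its 95% interval as a line. The dotted line parts the 23 glycolysis members (above) from the 14 HIF members (below), and the 4 members called higher (Tpi1, Gapdh, Egln3, Vegfa) and the 1 called lower (P4ha2) are coloured.

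The median change of the glycolysis members was 0.21 on the log2 scale, with 17 of 23 positive, beside 0.01 over all tested genes. By steps, the medians differed. From aldolase to lactate dehydrogenase, 9 genes were tested (Aldoa, Aldoc, Tpi1, Gapdh, Pgk1, Pgam1, Eno1, Pkm, Ldha). All 9 were positive, with a median of 0.31, beside 5844 positive of the 11453 tested genes. Levels of 6 of the 9 did not overlap between the groups (66.7%, against 43% of all tested genes). The 7 genes from hexokinase to phosphofructokinase had a median of 0.00, 0 called by edgeR, DESeq2 or limma-voom, 0 at an unadjusted p under 0.05, and 0 without overlap. This division of the pathway was made after the values were seen, and the difference between the upper and lower genes was not tested. After removal of the trends with exon length and GC content, the medians came closer, at 0.17 for the lower genes and 0.14 for the upper ones (7 of 7 positive, Pfkp called). Fold change also moved with transcript length in these libraries, as given further on, and the lower-pathway genes have shorter transcripts (1420 to 2786 bases) than the upper ones (2879 to 5513 bases).

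Gapdh oxidises glyceraldehyde 3-phosphate and gives the pathway's NADH. It stood at 4306, 4018 and 4019 TMM-normalized CPM in control libraries 1 to 3 and at 5929, 6039 and 6528 in knockout libraries 1 to 3. The lowest knockout library was well above the highest control library, with means of 4114 ± 166 and 6165 ± 319 (SD, n = 3) and a log2 fold change of 0.58 (SE 0.125, adjusted p = 0.0116). Gapdh is often used as a constant reference gene, and here it was 1.5-fold higher in the knockout. Its call was lost without control library 2 (log2 fold change 0.57, adjusted p = 0.0842) and without control library 3 (0.57, adjusted p = 0.0522), with the size nearly as before.

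Tpi1 interconverts the pair of triose phosphates that aldolase makes. It stood at 1101, 1037 and 1145 CPM in the control and at 1408, 1824 and 1812 in the knockout. All knockout libraries were above all control libraries, with knockout library 1 nearest to them, and the log2 fold change was 0.62 (SE 0.144, adjusted p = 0.0152). Leaving out control library 2 ended the call (0.58, adjusted p = 0.0917), as did leaving out knockout library 2 (0.56, adjusted p = 0.0549) or knockout library 3 (0.57, adjusted p = 0.0616). With length, GC content and chromosome medians removed it was at 0.28 and not called (adjusted p = 0.131), while Gapdh was at 0.40 and called (adjusted p = 0.0439).

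Tpi1 (chromosome 6, 124810586 to 124814296, minus strand, GRCm38) and Gapdh (chromosome 6, 125161715 to 125166467, minus strand) are neighbours, with starts 351129 bases apart. A window reaching 500 kb beyond them, chosen after the values were seen, held 37 tested genes, Tpi1 and Gapdh among them. The 37 had a median change of 0.39 on the log2 scale, while the median over chromosome 6 was 0.10. Of the 37, 13 were called higher, Tpi1 and Gapdh included, beside 11.8% of all tested genes. With the 1 called lower, 37.8% of the window was called, beside 25.3% of all tested genes. The window's values therefore include the 2 genes that prompted it. The window's median was 0.26 (13 called higher) with exon length and GC content removed and 0.25 (9 called higher) with the length of the principal transcript in its place. Both genes overlap a gene on the other strand, Tpi1 with Spsb2 (8.19 CPM in the control) and Gapdh with Iffo1 (19.7 CPM), and the sources used here do not say whether reads were counted by strand. These partners were far lower than Tpi1 and Gapdh and neither was called.

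The other steps of the lower pathway were higher in the knockout by less, and none was called. Eno1 (enolase) stood at 3463, 2944 and 2959 CPM in the control and 3741, 4291 and 4306 in the knockout, without overlap (log2 fold change 0.40, SE 0.136, adjusted p = 0.0561). DESeq2 (adjusted p = 0.0174) and limma-voom (adjusted p = 0.0464) called it, as did edgeR without control library 1 (0.48, adjusted p = 0.0493) and without knockout library 1 (0.46, adjusted p = 0.0105). Pkm, pyruvate kinase and the member with the highest CPM in the control, stood at 4965, 4498 and 4200 CPM and at 5437, 5532 and 5639, again without overlap (0.28, SE 0.128, adjusted p = 0.127). Gene counts do not part its M1 and M2 splice forms.

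Pgk1, which makes the first ATP of the payoff phase, stood at 1930, 1929 and 1928 CPM in the control and at 2537, 2470 and 2212 in the knockout. The control libraries were nearly equal and all knockout libraries lay above them (0.32, SE 0.125, adjusted p = 0.0836), and DESeq2 called the difference (adjusted p = 0.0327). Aldoa, the main aldolase, stood at 1614, 1511 and 1448 CPM and at 1668, 1860 and 1767, without overlap (0.21, adjusted p = 0.23). Pgam1, the mutase between Pgk1 and enolase, overlapped because control library 1 was high: 654, 502 and 487 CPM against 639, 690 and 702 (0.31, adjusted p = 0.146). Without that library it was called (0.46, adjusted p = 0.0447), and with length, GC content and chromosome medians removed it was at -0.06 (adjusted p = 0.747).

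Ldha, the lactate-forming dehydrogenase subunit, stood at 2154, 2075 and 2044 CPM in the control and 2069, 2852 and 2534 in the knockout. Knockout library 1 was at the control level and the other two knockout libraries were above it (0.25, SE 0.147, adjusted p = 0.229), and without that library the gene was called (0.36, adjusted p = 0.0294). Without knockout library 2, the highest, the change was 0.14 (adjusted p = 0.542). Ldhb, the other subunit, had 0, 0 and 3 counts in the control and 0, 0 and 2 in the knockout, so nearly all lactate dehydrogenase counts came from Ldha. Retrocopies, testis forms and other family members of these enzymes could share reads with them. Eno1b had 43 to 116 counts in a library, Aldoart1, Aldoart2, Gapdhs and Pgam2 had at most 46 each, and Pgk2 and Ldhc had 0. Pseudogenes known only by a number were not examined, so sharing of reads with them was not tested.

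**Figure D2:**
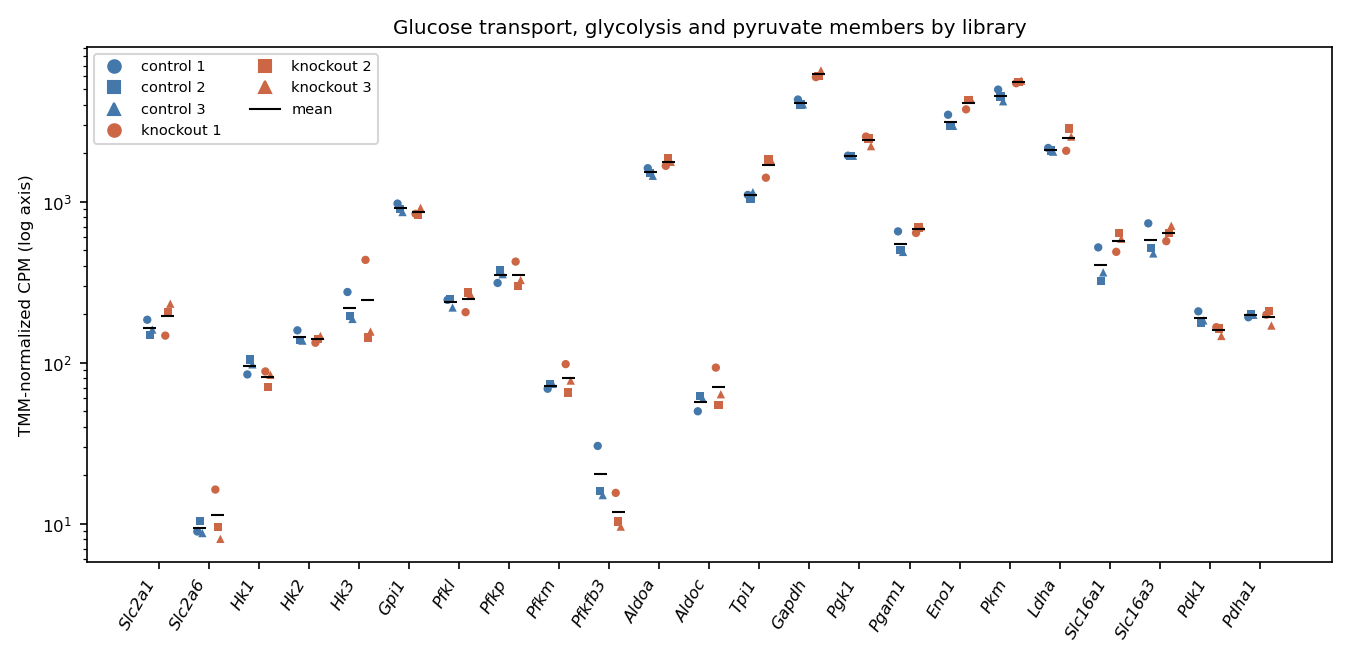
TMM-normalized CPM (log axis) of the 23 tested glycolysis members in each library, with marker shape for the library number, colour for the group and a bar at each group's mean. Gapdh and Tpi1 have all knockout points above the control points, and knockout library 1 is the high point of Hk3.

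Summed, the 10 lower-pathway genes took 2.07%, 1.97% and 1.97% of the counts of control libraries 1 to 3 and 2.31%, 2.34% and 2.43% of those of knockout libraries 1 to 3. The groups did not overlap (2.003 ± 0.0587% against 2.36 ± 0.065%, SD, n = 3), and without Gapdh the sums, 1.54 to 1.63% and 1.73 to 1.81%, did not overlap either. The 7 upper-pathway genes took 0.217%, 0.216% and 0.208% in the control and 0.218%, 0.166% and 0.187% in the knockout, which overlapped. No p is given for these sums, since the genes in them were chosen with their values known.

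**Figure D3:**
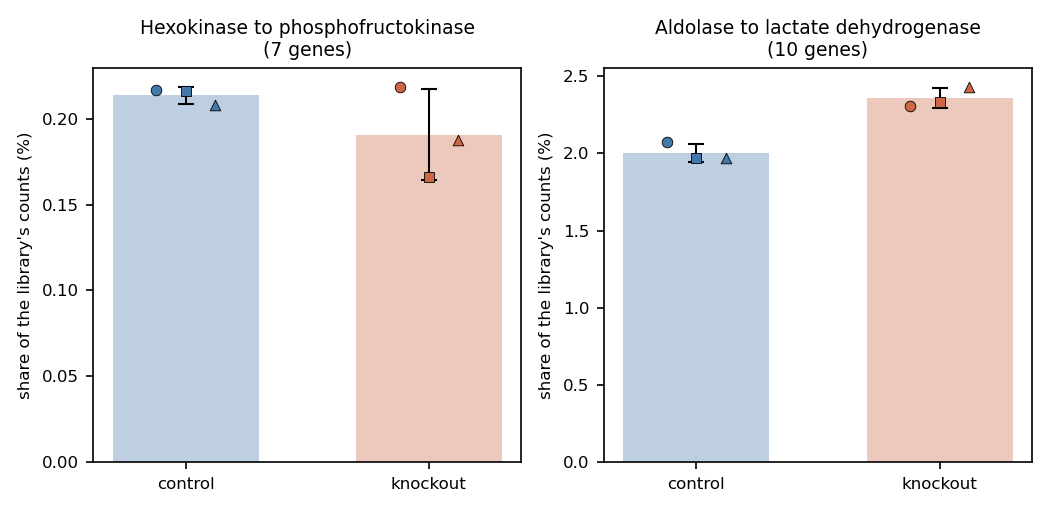
Share of each library's counts (%) taken by the upper-pathway genes (left) and the lower-pathway genes (right); bars are group means, error bars are SD (n = 3) and points are libraries, with shape for the library number. The lower-pathway share was 2.31 to 2.43% in the knockout and 1.97 to 2.07% in the control, while the upper-pathway shares overlapped.

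Among the listed glucose transporters Slc2a1 (GLUT1) had the highest level, at 185, 149 and 161 CPM in the control and 147, 206 and 232 in the knockout. The groups overlapped because knockout library 1 was the lowest of all 6 (0.25, SE 0.177, adjusted p = 0.319), and without it Slc2a1 was called higher (0.41, adjusted p = 0.0314). Without knockout library 3, the highest, the change was 0.11 (adjusted p = 0.731). Slc2a6, a minor transporter, stood at 8.95, 10.4 and 8.75 CPM and at 16.3, 9.54 and 8.06, with knockout library 1 apart from the rest. On a per-length scale (CPM per kb of the longest principal transcript) the control level was 50.5 for Slc2a1 and 4.38 for Slc2a6, and Slc2a3 (GLUT3) was at 0.0509.

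Hexokinases phosphorylate glucose on entry. Per kb of principal transcript, Hk3 was the highest in the control at 68.0. Hk2 at 26.3 and Hk1 at 24.9 lay within their library spread. Per kb of all annotated exons, Hk3 was at 59.4, Hk2 at 24.3 and Hk1 at 11.2. The distance between Hk2 and Hk1 therefore depends on the transcript assumed. Hk3, a myeloid form, stood at 275, 194 and 187 CPM in the control and at 435, 144 and 156 in the knockout. Knockout library 1 was the highest of the 6 and the other two knockout libraries were the lowest, so the fitted change was 0.16 (SE 0.375, adjusted p = 0.771), and without knockout library 1 it turned to a called fall of 0.55 on the log2 scale (adjusted p = 0.0217). Hk2 (139 to 159 CPM in the control, 133 to 147 in the knockout) and Hk1 (84.6 to 105 and 71.0 to 88.3) overlapped.

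Gpi1, which isomerises the product of hexokinase, was the most abundant gene of the upper pathway at 862 to 973 CPM in the control and 827 to 916 in the knockout (log2 fold change -0.08, adjusted p = 0.65). The phosphofructokinase forms overlapped too: Pfkp, at 313, 378 and 355 CPM against 424, 298 and 326, had a change of 0.01 (adjusted p = 0.983). Pfkl changed by 0.06 and Pfkm by 0.15 on the log2 scale, neither called. Per kb of principal transcript Pfkp (84.0) was above Pfkl (63.7) in the control, but per kb of all annotated exons the order was the reverse (25.99 and 35.6), so their order depends on the transcript assumed. Pfkfb3, which makes the activator fructose 2,6-bisphosphate, pointed down: 30.4, 15.9 and 15.1 CPM in the control and 15.6, 10.3 and 9.60 in the knockout, overlapping narrowly at 15.1 and 15.6 (-0.78, SE 0.293, adjusted p = 0.0734). It was called lower by DESeq2 (adjusted p = 0.0421) and without knockout library 1 (-1.02, adjusted p = 0.0107), while without control library 1, the highest, the change was -0.39 (adjusted p = 0.244). It was the 1 glycolysis member that fell at an unadjusted p under 0.05; edgeR called 0 lower, DESeq2 called 1 and limma-voom 0.

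Lactate leaves through Slc16a3 (MCT4), and Slc16a1 (MCT1) carries it in both directions. Slc16a1 stood at 520, 322 and 364 CPM in the control and 488, 638 and 589 in the knockout. Control library 1 lay above the lowest knockout library (0.51, SE 0.191, adjusted p = 0.0745), and the gene was called without control library 1 (0.74, adjusted p = 0.0226), without knockout library 1 (0.61, adjusted p = 0.0178) and by DESeq2 (adjusted p = 0.0387). Slc16a3 overlapped fully, at 733, 513 and 477 CPM and at 568, 642 and 708 (0.15, adjusted p = 0.545).

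Pdk1 encodes the kinase that switches off pyruvate dehydrogenase, which uses pyruvate inside mitochondria. It stood at 208, 178 and 183 CPM in the control and at 166, 163 and 147 in the knockout. Every knockout library was below every control library, but the gene was not called (-0.26, SE 0.127, adjusted p = 0.154). With length, GC content and chromosome medians removed, Pdk1 was at 0.12. Pdha1, the subunit it acts on, was at 191 to 200 CPM and 170 to 209 (-0.03, adjusted p = 0.882). Pdk1 is also a known HIF target.

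Of the HIF subunits, Hif1a stood at 244, 293 and 312 CPM in the control and 321, 273 and 255 in the knockout. The groups overlapped fully around equal means of 283 (log2 fold change 0.00, 95% interval -0.33 to 0.33, adjusted p = 1). Arnt, its partner, stood at 86.6, 105 and 93.9 CPM and at 87.6, 74.4 and 78.1, with control library 1 just below knockout library 1 (-0.25, SE 0.133, adjusted p = 0.183).

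The 4 genes of oxygen sensing and HIF degradation had log2 fold changes from 0.19 to 0.45, and Egln3 was called. Egln3 (PHD3; chromosome 12, 54178981 to 54203860, minus strand), a hydroxylase and itself a known HIF target, stood at 29.5, 27.2 and 33.4 CPM in the control and 41.6, 40.4 and 41.3 in the knockout. The knockout libraries were tightly grouped above the control (0.45, SE 0.133, adjusted p = 0.0344). Its call was lost without control library 1 (0.44, adjusted p = 0.0613), control library 2 (0.39, adjusted p = 0.17), knockout library 2 (0.46, adjusted p = 0.0927) or knockout library 3 (0.45, adjusted p = 0.0969).

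Vhl, the substrate-binding subunit of the ligase, stood at 18.3, 18.3 and 19.5 CPM in the control and 24.0, 25.99 and 23.7 in the knockout. The groups did not overlap, and the adjusted p just missed the threshold (0.39, SE 0.133, adjusted p = 0.0542; without knockout library 1 0.40, adjusted p = 0.0439). With length, GC content and chromosome medians removed it was at 0.06 (adjusted p = 0.74). Egln1 (PHD2), the main sensor in most cells, stood at 88.5, 76.9 and 79.5 CPM and at 76.6, 108 and 113. Knockout library 1 was the lowest of the 6 (0.29, adjusted p = 0.217), and without it the gene was called (0.44, adjusted p = 0.0167), while without knockout library 3 the change was 0.19 (adjusted p = 0.525). Egln2 (PHD1) stood at 32.2, 27.3 and 23.6 CPM and at 29.2, 35.1 and 30.1, overlapping (0.19, adjusted p = 0.391).

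Among the 8 remaining HIF members, each a listed HIF target, 1 rose, 1 fell and 6 were not called. Vegfa (chromosome 17, 46016993 to 46032369, minus strand), the vascular growth factor, stood at 53.7, 48.3 and 51.6 CPM in the control and 127, 66.1 and 67.3 in the knockout. Knockout library 1 was far above the other knockout libraries, and all 3 were above the control (0.76, SE 0.237, adjusted p = 0.0417). Without knockout library 1 the change was 0.38 and still called (adjusted p = 0.0311), and the call was lost without control library 1 (0.80, adjusted p = 0.0862), 2 (0.72, adjusted p = 0.143) or 3 (0.77, adjusted p = 0.0874). The median over the 599 tested genes of chromosome 17 was 0.38, and with chromosome medians removed beside length and GC content Vegfa was at 0.39 (adjusted p = 0.29).

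P4ha2 (chromosome 11, 54100095 to 54131665, plus strand) stood at 21.4, 10.7 and 15.1 CPM in the control and at 10.4, 4.97 and 6.62 in the knockout. The highest knockout library lay just under the lowest control library (-1.10, SE 0.313, adjusted p = 0.0307). The call was lost without control library 1 (-0.82, adjusted p = 0.0975), control library 3 (-1.12, adjusted p = 0.0606), knockout library 2 (-0.89, adjusted p = 0.111) or knockout library 3 (-1.02, adjusted p = 0.101). Its sister P4ha1 was at 72.7 to 78.3 CPM in the control and 71.3 to 80.3 in the knockout (0.03, adjusted p = 0.889).

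Kdm3a, a histone demethylase, stood at 47.9, 62.2 and 59.3 CPM in the control and at 42.0, 47.3 and 42.7 in the knockout, below it without overlap (-0.36, SE 0.143, adjusted p = 0.0869; without control library 1 -0.46, adjusted p = 0.0423). The mitophagy receptors Bnip3 (0.09) and Bnip3l (0.07), the stress gene Ndrg1 (0.21) and Ankrd37 (-0.23) overlapped. Ndrg1 had its highest level in knockout library 1, at 195 CPM against 130 and 136 in the other knockout libraries.

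**Figure D4:**
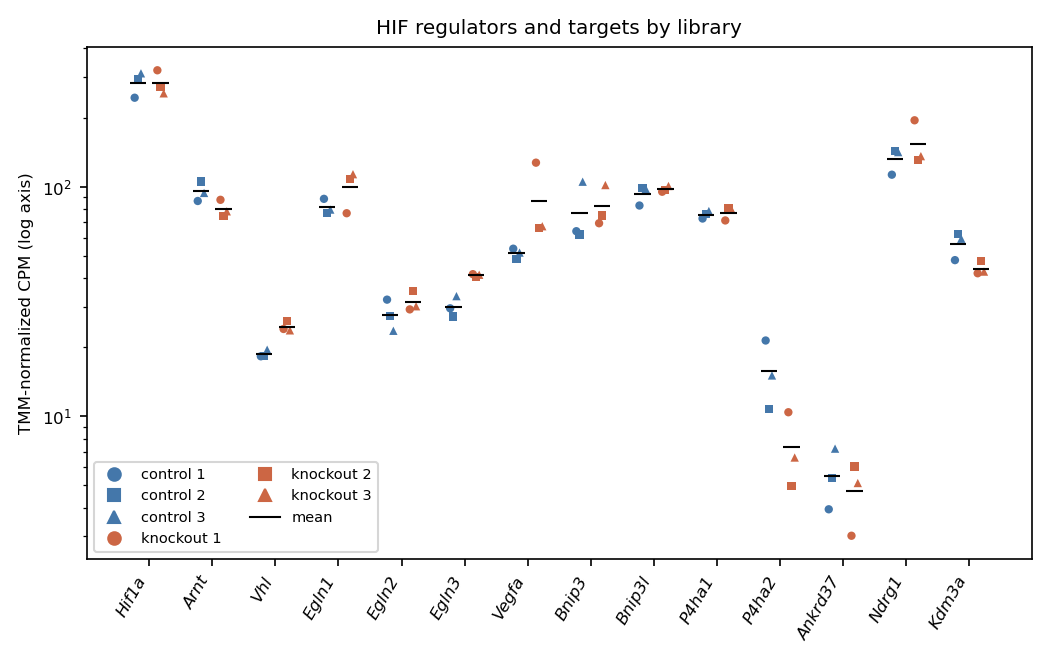
TMM-normalized CPM (log axis) of the 14 HIF members in each library, with marker shape for the library number, colour for the group and a bar at each group's mean. Egln3, Vegfa and Vhl lie higher and P4ha2 and Kdm3a lower in every knockout library, and Hif1a has equal means.

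Knockout library 1 was the highest or the lowest of the 6 libraries for 17 of the 37 tested members, against 28.6% of all tested genes. Knockout library 2 was so for 16 of the 37 members, and for 46.3% of all tested genes, the most of any library. Knockout library 1 was the high library for 10 members: Hk3, Vegfa, Slc2a6, Pfkm, Aldoc, Ndrg1, Pfkp, Pgk1, Hif1a and Egln3. It was the low one for 7: Slc2a1, Egln1, Hk2, Pfkl, P4ha1, Ankrd37 and Kdm3a. The source of these differences between libraries was not tested.

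Ratios of paired forms were compared within libraries, as log2 of the count ratio. Of 13 tested pairs, 11 overlapped between groups. Slc16a3 over Slc16a1 was 1.41, 1.59 and 1.31 in the control and 1.16, 1.01 and 1.20 in the knockout, lower without overlap (difference -0.35 on the log2 scale). Pdk1 over Pdha1 was 1.09, 0.889 and 0.923 in the control and 0.836, 0.780 and 0.861 in the knockout, also lower without overlap (-0.22). Each had the smallest p that 3 libraries against 3 allow, 0.1 in a two-sided exact permutation test, and 0.65 after adjustment over the 13 pairs, so no pair could pass. P4ha2 over P4ha1 overlapped (difference -1.13, exact permutation p = 0.2), as did Arnt over Hif1a (-0.25, exact permutation p = 0.2).

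Log2 fold change fell with transcript length across all tested genes. With the genes divided by length into 5 equal classes, the median was 0.38, 0.20, 0.04, -0.12 and -0.40 from the shortest class to the longest, and these held 5, 9, 11, 9 and 3 members. The length here is that of the longest principal transcript of the annotation, which for Vegfa is a short form of 654 bases. Its part in the members' changes was examined by removing each library's trend with length and GC content. With the length of all annotated exons, Gapdh (0.56, adjusted p = 0.00993) and Tpi1 (0.44, adjusted p = 0.0348) kept their call, Eno1 (0.59, adjusted p = 0.0216), Pkm (0.43, adjusted p = 0.033) and Pfkp (0.48, adjusted p = 0.0195) gained one, P4ha2 kept its own (-0.96, adjusted p = 0.0425), and Egln3 (0.24, adjusted p = 0.16) and Vegfa (0.73, adjusted p = 0.053) lost theirs.

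With the length of the principal transcript, an alternative added after the values were seen, 0 glycolysis members were called by edgeR: Gapdh was at 0.28 (adjusted p = 0.0936), Tpi1 at 0.36 (adjusted p = 0.0559), Eno1 at 0.24, Pkm at 0.21, Ldha at 0.01, and Aldoa turned to -0.07. Egln3 (0.39, adjusted p = 0.0504) and Vegfa (0.33, adjusted p = 0.457) were not called and P4ha2 was (-1.23, adjusted p = 0.0294). The 9 lower-pathway genes then had a median of 0.21 with 8 positive, and the 7 upper-pathway genes 0.14 with 5 positive, beside 0.01 over all genes.

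**Figure D5:**
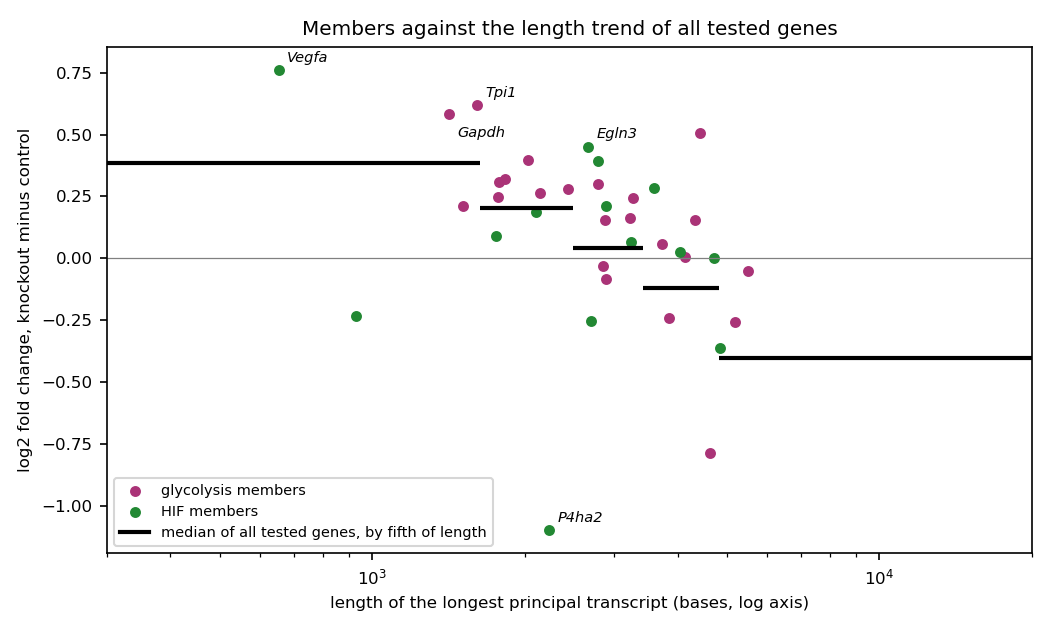
Log2 fold change (knockout minus control, y axis) of the tested members against the length of the longest principal transcript (bases, log axis), with horizontal bars at the median of all tested genes in each of 5 length classes. The bars step down from 0.38 to -0.40, and the lower-pathway genes lie at the short end.

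Of 81 other genes of these pathways, listed beside the members, 60 were tested, and 11 rose and 6 fell (28.3% called, beside 25.3% of all genes). Those with the lowest adjusted p among the genes that rose were Elob (1.07, adjusted p = 0.00202), Fam162a (0.96, adjusted p = 0.00423), Siah2 (0.56, adjusted p = 0.0162), Eloc (0.84, adjusted p = 0.018) and Mpc1 (0.55, adjusted p = 0.0183). Elob and Eloc encode the elongin adaptors of the VHL ligase: Elob stood at 81.8, 78.9 and 85.0 CPM in the control and 140, 197 and 177 in the knockout, and Eloc at 78.7, 88.2 and 97.4 and at 114, 208 and 150. Of the 5 ligase subunits, Vhl, Elob, Eloc, Cul2 and Rbx1, these 2 were called. With length, GC content and chromosome medians removed, Elob was at 0.36 (adjusted p = 0.0561) and Fam162a at 0.30 (adjusted p = 0.111), and neither was called. The Eloc call was lost without control library 1 (0.77, adjusted p = 0.0583), control library 2 (0.84, adjusted p = 0.0763) or knockout library 2 (0.58, adjusted p = 0.0633).

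Siah2 is a ubiquitin ligase for the prolyl hydroxylases, and its call was lost without control library 2 (0.60, adjusted p = 0.0682), control library 3 (0.54, adjusted p = 0.0557) or knockout library 2 (0.50, adjusted p = 0.0669). The Siah2 call was also lost with total counts alone and with length, GC content and chromosome medians removed. Its smallest change over all alternatives was 0.35. Fam162a is a mitochondrial protein induced by low oxygen. Mpc1 is a subunit of the mitochondrial pyruvate carrier. Mpc1 lost its call without control library 2 (0.57, adjusted p = 0.0825), control library 3 (0.50, adjusted p = 0.0707) or knockout library 2 (0.51, adjusted p = 0.0695), and with transcript length removed (0.16, adjusted p = 0.467). The Mpc1 call was also lost with total counts alone, and with exon length and GC content removed, with or without chromosome medians.

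The genes that fell, by lowest adjusted p, were Galm (-1.90, adjusted p = 0.000587), Epas1 (-3.15, adjusted p = 0.0151), Eno3 (-0.54, adjusted p = 0.0174), Pdk2 (-1.72, adjusted p = 0.0318) and Pdpr (-1.41, adjusted p = 0.0343). Galm, the mutarotase that converts between the anomers of sugars, stood at 17.002, 18.1 and 20.3 CPM in the control and 6.27, 4.77 and 3.93 in the knockout, with every knockout library under every control library. Epas1 encodes HIF-2 alpha, the second oxygen-regulated subunit, and was low in both groups: 1.25, 3.85 and 3.72 CPM in the control and 0, 0.739 and 0.249 in the knockout. Control library 2 (-2.92 without it, adjusted p = 0.0682) and knockout library 3 (-2.94 without it, adjusted p = 0.0623) each decided its call. The muscle enolase Eno3 was called except without control library 2 (-0.61, adjusted p = 0.0563), control library 3 (-0.50, adjusted p = 0.0625) or knockout library 3 (-0.53, adjusted p = 0.0702). Pdk2 (under 3 CPM) lost its call without control library 2 (-1.47, adjusted p = 0.144), control library 3 (-1.61, adjusted p = 0.0913) or knockout library 2 (-1.48, adjusted p = 0.121), and Pdpr without control library 1 (-1.41, adjusted p = 0.079), control library 2 (-1.25, adjusted p = 0.119), knockout library 2 (-1.14, adjusted p = 0.122) or knockout library 3 (-1.09, adjusted p = 0.104). Pdpr was also not called by DESeq2 (adjusted p = 0.0718) or with transcript length removed (-1.22, adjusted p = 0.0549). Without knockout library 1, at 30.4 CPM against 9.40 and 8.75 in the other knockout libraries, its change was -2.23 (adjusted p = 9.74e-06).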

How the data were processed

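RNA-seq libraries of DC2.4 cells, 3 control and 3 PD-L1 knockout, were grouped by the genotype in their labels. The authors deposited 1 table of whole-number read counts per gene symbol, with no normalization, and all 6 of its sample columns were used. The submitters' processing notes name Trimmomatic 0.39, STAR 2.7.5c, StringTie 2.1.7 and the mm10 build. How reads were counted, with which annotation and strand setting, is not given in the sources used here. Per the labels' protocols, libraries were made from total RNA with KAPA Hyper Prep kits.

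From these counts, genes past filterByExpr were scaled by TMM and tested with edgeR 4.0.16 (R 4.3.3; quasi-likelihood F test, groups as the only term, Benjamini-Hochberg adjustment over all tested genes, threshold 0.05). The SE of a log2 fold change is its size divided by the square root of F. Levels are CPM on TMM-scaled library totals. The common biological coefficient of variation was 17.5%. Transcript lengths, GC content and positions came from GENCODE annotation of GRCm38, in which 30260 of 31205 symbols were matched directly and 307 through another symbol, and start sites and promoter bases from RefSeq.

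The alternatives were DESeq2 1.42.0, limma-voom (limma 3.58.1), other scalings and filters, the replicate number as a block, offsets that remove trends with length, GC content and chromosome (loess, span 0.3), and leaving out each library in turn. The offsets used a robust loess, chosen after a least-squares loess had been seen to move the median of all genes, and both are given. The members and all gene lists were chosen with earlier results of these data known. Named were all members, with per-library values for called members, the gene of highest level at each step and the oxygen sensors, and up to 5 other pathway genes called in each direction. Pathway divisions, the chromosome 6 window and offsets by principal transcript length were set after seeing values.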

Additional observations from a re-analysis of the deposited data

How the results depend on the processing

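All 5 member calls had the same direction under 19 alternatives, but each was lost under some. Glycolysis members called higher, 2 as reported (Gapdh and Tpi1), were 5 with DESeq2's test, 5 with length and GC offsets (5 with the replicate block as well, 5 by least squares), 4 with chromosome medians added, 0 with principal transcript lengths, and 0 to 6 without 1 library. Those called lower, 0 as reported, were 2 with total counts alone, 1 with no filter, 1 with DESeq2's test, 1 with the replicate block, and 0 to 2 without 1 library. HIF members called higher, 2 as reported, were 0 with total counts alone, 0 with length and GC offsets (1 with the replicate block), 0 with chromosome medians, 0 with principal transcript lengths, and 0 to 4 without 1 library. Those called lower, 1 as reported, were 2 with total counts alone, 0 with chromosome medians, 0 with least squares, and 0 to 1 without 1 library. Other pathway genes called higher, 11 as reported, were 3 with total counts alone, 2 with chromosome medians, and 2 to 16 without 1 library, and those called lower, 6 as reported, were 1 to 12.

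Over all genes, the 1353 called higher became 667 with total counts alone, 750 with chromosome medians, 885 with principal transcript lengths and 2106 by least squares, and 166 to 2346 without 1 library. The 1543 called lower became 994 with chromosome medians, 951 by least squares, and 472 to 2616 without 1 library. The lowest counts, 166 higher and 472 lower, came without control library 2, the library with stromal counts. Without knockout library 2 they were 399 and 645. Leaving out control library 2 also left 0 glycolysis and 0 HIF members called higher, and 2 other pathway genes higher and 1 lower. The part of the stromal counts in this was not tested. Total counts alone moved the median of all genes to -0.14 and least squares moved it to 0.13, and against that shift the glycolysis median was 0.06 with total counts alone. Of 32 members not called, 14 gained a call and 1 (Hk3, from -0.55 without knockout library 1 to 0.43 without knockout library 2) gained one in the opposite direction; 18 had the opposite sign under at least 1 alternative. Mpc1 turned to -0.0756 with chromosome medians. The cause was not tested, and no other named result that was called changed sign. For the isozyme ratios, the difference between groups under each alternative (2 added to each count, or 1 library left out) lay within 1 SD of the reported difference.

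With the replicate block, 1480 genes were called higher and 1732 lower, and of the members Pfkfb3 gained a call (-0.75, adjusted p = 0.00978). Same-numbered libraries had correlated deviations of 0.15, -0.06 and 0.36, so the numbers were not taken to pair the libraries, and not every library correlated best with its own number.

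With 3 libraries per group and Slc2a3 and Ldhb at or under 11 counts, nothing can be said of changes in those genes. Ankrd37, at 3.02 to 7.23 CPM, had a 95% interval from -0.95 to 0.48.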
